A study of Mus musculus with 46 samples.

Results

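The 8 genes Vegfa, Adm, Pfkfb3, P4ha1, Ndrg1, Hilpda, Bnip3 and Slc2a1, all known to respond to low oxygen, were taken by symbol from the 24671 genes of the count table. All 8 were found, each in 1 row, and all 8 passed the filter on low counts. They were measured by sequencing of polyadenylated RNA from mouse bone marrow-derived macrophages (BMDM), macrophages grown in culture from bone marrow. The question was how ligands of the liver X receptors (LXR), nuclear receptors that sense oxysterols, and of the estrogen receptors (ER) act on these cells. Each of 8 treatments had 5 libraries and Vehicle had 6, giving 46 libraries in 9 groups. The single compounds were 27HC (27-hydroxycholesterol, a cholesterol metabolite and ligand of both receptor families), the LXR agonist GW3965, the LXR antagonist GSK2033, E2 (estradiol, which activates ER) and ICI, named so in the labels and used as an ER antagonist. The combinations were GSK2033 + 27HC, ICI + 27HC, and GW3965 with a second compound. The titles of that last group name 27HC where its other labels name ICI, so the second compound is left unnamed here. The labels used here give no strain, genotype, sex or age, no dose or time of exposure and no oxygen level. Nothing in them tells whether replicate libraries are separate mice or cultures, so the p-values reflect no more than the spread among these libraries, which may be technical.

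When oxygen is short, the prolyl hydroxylases that mark hypoxia-inducible factor (HIF) alpha subunits for destruction by the VHL ubiquitin ligase slow down, and the subunits accumulate, pair with ARNT and bind hypoxia response elements. Macrophages work in poorly oxygenated wounds and tumours, and there HIF targets are known for supplying vessel growth signals and for glycolysis. HIF-1 alpha also accumulates in macrophages at normal oxygen on inflammatory stimulation, and several of the 8 genes have other inputs besides HIF. By role, Vegfa encodes vascular endothelial growth factor A, the main growth signal for blood vessels, and Adm encodes adrenomedullin, a vasodilator peptide. Slc2a1 encodes the glucose transporter GLUT1, and Pfkfb3 makes fructose 2,6-bisphosphate, an activator of glycolysis. Hilpda encodes a lipid droplet protein that inhibits the lipase ATGL, Bnip3 a mitochondrial protein of mitophagy and cell death, P4ha1 a catalytic subunit of the collagen prolyl hydroxylase, and Ndrg1 a stress-responsive protein.

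Vegfa (ENSMUSG00000023951) is on the minus strand of chromosome 17 from 46016993 to 46032369, and Adm (ENSMUSG00000030790) on the plus strand of chromosome 7 from 110627661 to 110629820. Slc2a1 (ENSMUSG00000028645) is on the plus strand of chromosome 4 from 119108711 to 119137983, and Pfkfb3 (ENSMUSG00000026773) on the minus strand of chromosome 2 from 11471433 to 11554077. Hilpda (ENSMUSG00000043421) is on the plus strand of chromosome 6 from 29272488 to 29275446, and Bnip3 (ENSMUSG00000078566) on the minus strand of chromosome 7 from 138890836 to 138909519. P4ha1 (ENSMUSG00000019916) is on the plus strand of chromosome 10 from 59323296 to 59373304, and Ndrg1 (ENSMUSG00000005125) on the minus strand of chromosome 15 from 66929318 to 66969640.

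The hypoxia response element has the core ACGTG or GCGTG, which was searched on both strands in the 250 bases before the start sites of RefSeq (GRCm38.p6). Of 32851 such windows of all genes, alternative start sites included, 38.6% held at least 1 core. For 7 of the 8 genes the table used had windows, 10 in all, and 8 of the 10 held a core. By first window alone, 5 of the 7 genes held a core. The windows of Hilpda overlap each other, and the share over all windows was not matched for base composition. Ndrg1 is named only. Bnip3 held 5 cores, P4ha1 held 3, and Adm and Slc2a1 held 2 each, all with 1 window. The other 3 genes had 2 windows each: Pfkfb3 held 1 core in the first and 3 in the second, Hilpda held 0 and 3, and Vegfa held 0 and 2. The second windows of Vegfa (chr17:46025164-46025413) and Pfkfb3 (chr2:11502091-11502340) belong to alternative start sites and lie wholly inside the annotated genes. An LXR element, written as a pair of AGGTCA motifs with any 4 bases between them, was in 0.0152% of all windows and in 0 of the windows of these genes. So rare an exact match would hardly be met in 10 windows, so this 0 says nothing of LXR binding. The upstream sequences of Bnip3, the window with most cores, of P4ha1 with its 3 cores, and of the secreted ligands Adm and Vegfa (for Vegfa the first window) are shown 5′ to 3′ on the gene's strand, with cores in capitals; a core on the other strand reads CACGT or CACGC, and CACGTG is a core on both strands. For Bnip3 (chr7:138909520-138909756, minus strand) the 13 bases that fall inside the annotated gene are left off. The others are chr10:59323046-59323295 (P4ha1, plus strand), chr7:110627407-110627656 (Adm, plus strand) and chr17:46032378-46032627 (Vegfa, minus strand).
Bnip3: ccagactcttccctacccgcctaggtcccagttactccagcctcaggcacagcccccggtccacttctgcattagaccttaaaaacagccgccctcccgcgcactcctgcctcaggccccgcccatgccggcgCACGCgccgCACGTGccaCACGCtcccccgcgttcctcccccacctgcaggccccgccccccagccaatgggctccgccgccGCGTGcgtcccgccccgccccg
P4ha1: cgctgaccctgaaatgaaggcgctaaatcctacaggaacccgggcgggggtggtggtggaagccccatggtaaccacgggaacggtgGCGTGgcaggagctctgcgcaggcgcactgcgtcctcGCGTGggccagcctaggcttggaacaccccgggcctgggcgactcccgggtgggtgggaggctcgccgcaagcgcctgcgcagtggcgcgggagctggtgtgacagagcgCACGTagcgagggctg
Adm: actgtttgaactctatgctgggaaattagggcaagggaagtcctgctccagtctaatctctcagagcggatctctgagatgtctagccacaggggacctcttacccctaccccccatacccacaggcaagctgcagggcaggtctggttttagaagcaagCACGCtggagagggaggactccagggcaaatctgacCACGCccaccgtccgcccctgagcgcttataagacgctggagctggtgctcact
Vegfa: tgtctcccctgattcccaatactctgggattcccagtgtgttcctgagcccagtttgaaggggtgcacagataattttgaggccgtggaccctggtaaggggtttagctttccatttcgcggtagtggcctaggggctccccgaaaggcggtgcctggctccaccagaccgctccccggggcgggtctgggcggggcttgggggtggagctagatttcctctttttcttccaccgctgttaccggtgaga
A match describes the letters of this window and is not a measured binding site.

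Library totals lay between 19354093 and 30921038 estimated counts, and mitochondrially encoded transcripts took 1.21% to 2.28% of them. The 8 genes had between 167 estimated counts (the lowest library for Hilpda) and 6850.0 (the highest for P4ha1). Levels are given as CPM, counts relative to a library size scaled by TMM. As checks of the ligands, the LXR targets Abca1 and Abcg1 had log2 fold changes against Vehicle of 1.33 and 3.06 with 27HC, 2.37 and 4.57 with GW3965, and -2.46 and -4.94 with GSK2033. With ICI, Abcg1 averaged 110 ± 7.06 CPM, against 41.2 ± 7.25 CPM with Vehicle (SD). Abca1 averaged 380 ± 17.0 CPM with ICI and 394 ± 32.7 CPM with Vehicle (SD). Esr1, which encodes ER alpha, averaged 6.18 ± 0.320 CPM with Vehicle (SD). All 7 macrophage markers (Adgre1, Csf1r, Cd68, Itgam, Mertk, Fcgr1 and Lyz2) were present, and their summed level moved with treatment, as did that of 6 stromal markers (Col1a1, Col1a2, Col3a1, Sparc, Pdgfrb and Cxcl12). The macrophage sum was 13747 to 15029 CPM with 27HC, 10664 to 11215 with GW3965, 15548 to 16564 with GSK2033, 20633 to 22121 with E2 and 13963 to 14676 with ICI. It was 12079 to 13534 CPM with GSK2033 + 27HC, 9935 to 10621 with ICI + 27HC and 9075 to 9637 with GW3965 + second compound, against 19576 to 21345 CPM with Vehicle. The stromal sum was 3370 to 3814 CPM with 27HC, 3241 to 3880 with GW3965, 3710 to 4524 with GSK2033, 4403 to 4956 with E2 and 3587 to 4231 with ICI. It was 3622 to 3948 CPM with GSK2033 + 27HC, 2759 to 3155 with ICI + 27HC and 2719 to 3299 with GW3965 + second compound, against 4273 to 5046 CPM with Vehicle. Of 6 neutrophil markers the summed level stayed at 0.642 to 2.71 CPM in every library, with Ly6g at 0 in all Vehicle libraries, and the sum of 5 dendritic cell markers stayed at 0.675 to 1.94 CPM. Summed levels over all libraries were 5.59 to 28.1 CPM for 7 lymphocyte markers, 7.05 to 26.1 CPM for 4 endothelial markers and 42.6 to 174 CPM for 5 osteoclast markers. Single macrophage markers did not all follow their sum: in every treatment some of the 7 rose and others fell against Vehicle. With ICI, 3 rose and 4 fell, where 13.9% of all tested genes rose and 12.5% fell. With GW3965, 2 rose and 5 fell, where 23.1% of all tested genes rose and 21.1% fell. The part of these marker shifts in the results below was not tested. In bulk RNA, fewer cells of a type and less RNA per cell cannot be told apart.

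The 8 genes did not move as 1 block. The highest and lowest group means differed by 0.46 on the log2 scale for P4ha1, 0.61 for Bnip3, 0.75 for Adm, 1.00 for Vegfa, 1.01 for Slc2a1, 1.18 for Pfkfb3, 1.19 for Hilpda and 1.31 for Ndrg1, where the median of all tested genes was 0.49. GSK2033 + 27HC gave the highest mean of 4 genes (P4ha1, Hilpda, Bnip3 and Slc2a1), GSK2033 alone that of Adm and Pfkfb3, E2 that of Vegfa, and GW3965 + second compound that of Ndrg1. The highest group was told apart from the next in order for Bnip3, Slc2a1 and Ndrg1. For P4ha1, Hilpda, Adm, Pfkfb3 and Vegfa it was not (adjusted p from 0.0534 to 0.928, edgeR). Across the 9 group means of log2 CPM, which share libraries between genes, Pearson's r between the members ran from -0.559 (Vegfa and Adm) to 0.864 (Hilpda and Slc2a1).

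**Figure D1:**
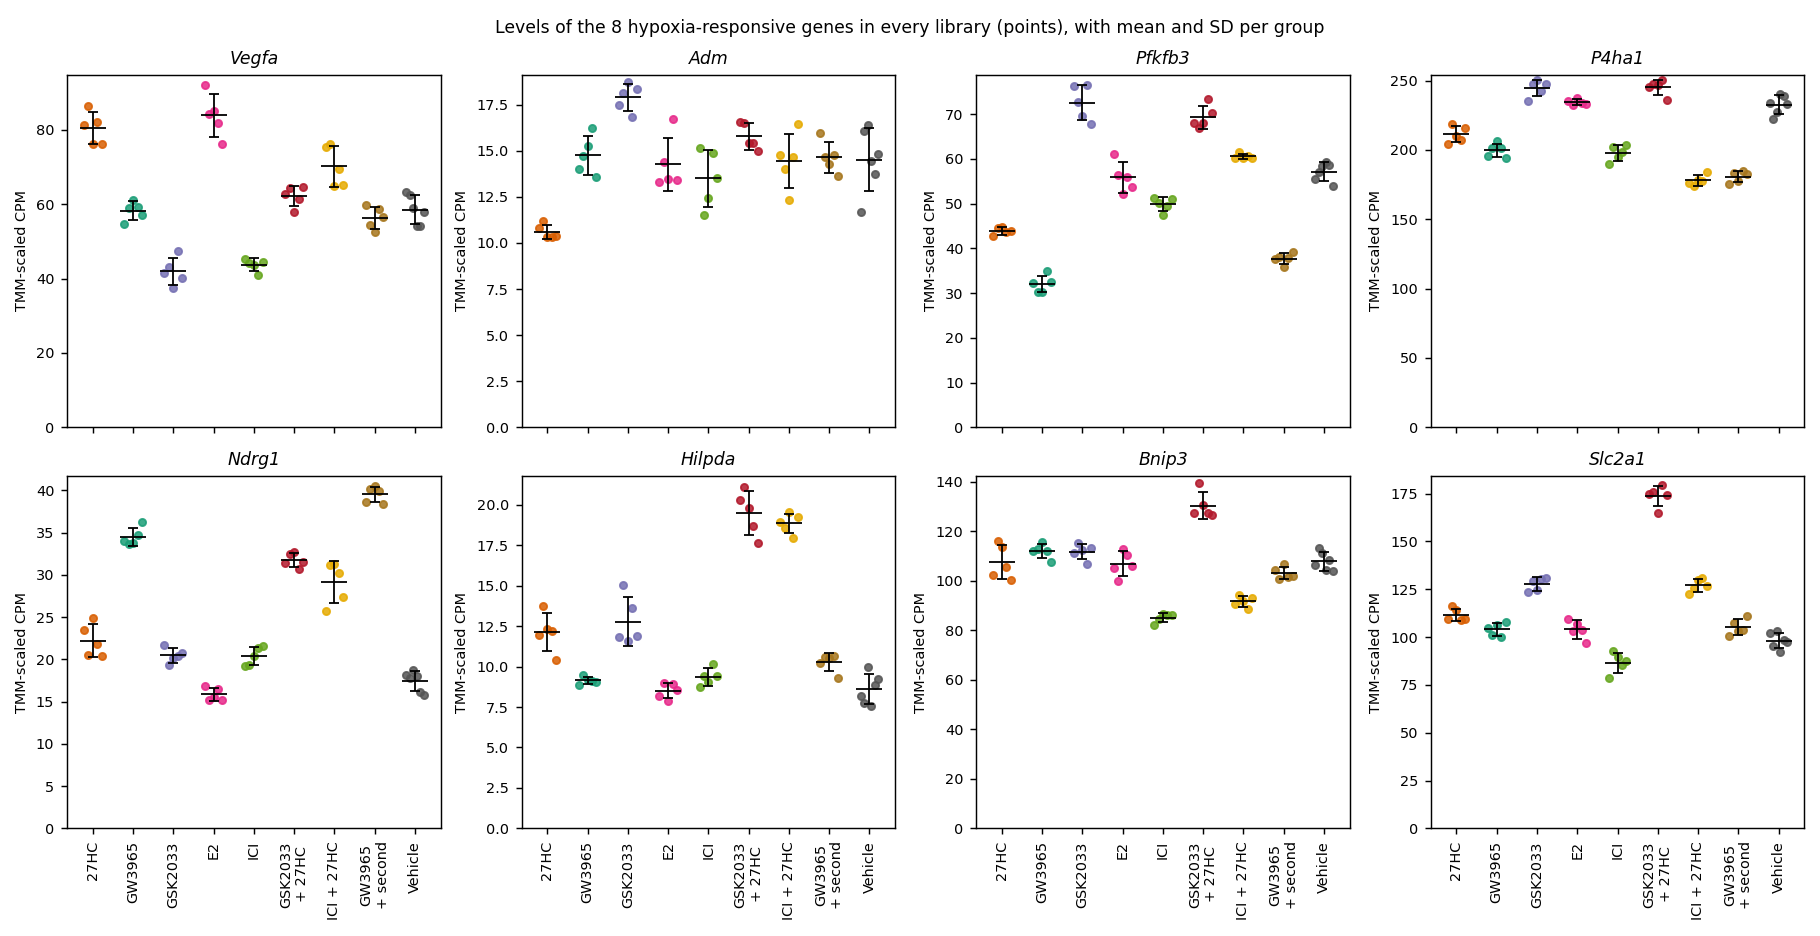
TMM-scaled CPM of each gene (vertical axes, from 0) in every library (points) of the 9 groups (horizontal axis, Vehicle at the right), with bars for the group mean and SD. Vegfa is high with 27HC and E2 and low with GSK2033 and ICI, and Ndrg1 is highest in both GW3965 groups. Slc2a1 stands highest with GSK2033 + 27HC, and Hilpda with GSK2033 + 27HC and ICI + 27HC.

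Throughout the text, a gene rose, fell or passed when its adjusted p was below 0.05, with edgeR's quasi-likelihood test and Benjamini-Hochberg adjustment over 13838 genes. SD is over n = 6 for Vehicle and n = 5 for any other group, and log2 fold changes carry the standard error (SE) and, where given, the 95% interval of that fit.

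Vegfa, the vessel growth factor, rose with 27HC and with E2 and fell with GSK2033 and with ICI. Its 5 libraries had 81.4, 86.4, 76.2, 82.2 and 76.1 CPM with 27HC, against a lowest of 54.2, a median of 58.5 and a highest of 63.4 CPM with Vehicle. Every 27HC library lay above every Vehicle library, with a log2 fold change of 0.46 (SE 0.0518, adjusted p = 3.91e-10, edgeR). With E2 the values were 92.2, 84.4, 85.2, 81.9 and 76.2 CPM, again all above Vehicle, and the log2 fold change was 0.52 (SE 0.0517, adjusted p = 2.55e-10, edgeR). Below Vehicle lay all libraries with GSK2033, at 41.5, 43.1, 37.4, 47.3 and 40.2 CPM (log2 fold change -0.48, SE 0.0535), and with ICI, at 45.4, 44.3, 43.7, 40.9 and 44.3 CPM (-0.42, SE 0.0532). GW3965, which also binds LXR, gave 54.6, 59.1, 61.2, 59.4 and 57.0 CPM, all within the Vehicle range, and a log2 fold change of -0.01 with a 95% interval from -0.11 to 0.10 (adjusted p = 0.934, edgeR). Of the combinations, ICI + 27HC had 75.3, 76.2, 64.8, 69.5 and 65.1 CPM, all above Vehicle (log2 fold change 0.26, SE 0.0520), and GSK2033 + 27HC had 62.7, 64.4, 58.0, 61.5 and 64.6 CPM, overlapping Vehicle (0.09, 95% interval -0.02 to 0.19). Scaling by library totals alone instead of TMM makes that last difference 0.14 with an adjusted p of 0.0254 (edgeR). From low to high, mean log2 CPM was 5.39 with GSK2033, 5.45 with ICI, 5.82 with GW3965 + second compound, 5.87 with GW3965, 5.87 with Vehicle, 5.96 with GSK2033 + 27HC, 6.13 with ICI + 27HC, 6.33 with 27HC and 6.39 with E2. Neighbours in this order were not told apart between GSK2033 and ICI, along the run from GW3965 + second compound to GSK2033 + 27HC, and between 27HC and E2. Over all 36 pairs of groups, 29 differed for Vegfa. The share of all tested genes that differed in a pair ran from 4.7% (E2 against Vehicle) to 53% (ICI + 27HC against Vehicle). The number of differing pairs per gene was not computed for all tested genes, so such counts have no background here.

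Adm, the vasodilator peptide, was lowest with 27HC and highest with GSK2033. With 27HC it had 10.8, 11.2, 10.3, 10.3 and 10.4 CPM, against a lowest of 11.7, a median of 14.6 and a highest of 16.4 CPM with Vehicle, so the groups did not overlap. Its log2 fold change was -0.45 (SE 0.0753, adjusted p = 2.93e-06, edgeR), opposite in sign to that of Vegfa under the same compound. GSK2033 gave 17.5, 18.1, 18.7, 16.9 and 18.3 CPM, all above Vehicle (log2 fold change 0.30, SE 0.0724, adjusted p = 0.000666, edgeR). In the other 6 treatments Adm averaged 13.5 to 15.8 CPM, against 14.5 ± 1.71 CPM (SD) with Vehicle, and did not pass. Adm differed in 15 of the 36 pairs of groups, the fewest of the 8 genes. Per pair, 4.7% to 53% of all tested genes differed, and their counts of pairs were not computed. Along its order of means 27HC was the only group told apart from its neighbour.

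Slc2a1, the glucose transporter GLUT1, was highest with GSK2033 + 27HC and lowest with ICI. GSK2033 + 27HC had 175, 176, 165, 179 and 174 CPM, against a lowest of 92.4, a median of 97.9 and a highest of 103 CPM with Vehicle. The lowest of these libraries lay above every library of the other 8 groups, and the log2 fold change against Vehicle was 0.82 (SE 0.0335, adjusted p = 4.05e-25, edgeR). GSK2033 alone gave 123, 129, 125, 131 and 131 CPM (log2 fold change 0.38, SE 0.0339) and ICI + 27HC gave 123, 126, 129.6, 131 and 127 CPM (0.37, SE 0.0339), both without overlap with Vehicle and not told apart from each other. With 27HC alone the level was 112 ± 3.21 CPM (SD), a log2 fold change of 0.19 (SE 0.0340). ICI gave 78.5, 92.5, 89.4, 85.4 and 87.4 CPM, overlapping Vehicle in 1 library by a small margin (log2 fold change -0.18, SE 0.0343, adjusted p = 5.59e-05, edgeR). Small rises of 0.09 with GW3965 (SE 0.0342, adjusted p = 0.0379, edgeR) and 0.10 with GW3965 + second compound (SE 0.0340, adjusted p = 0.0117, edgeR) lay close to the threshold. Leaving out any of Vehicle libraries 2, 4 and 6 or GW3965 libraries 1, 2, 3 and 5 ended the first call (adjusted p from 0.0527 to 0.169), and leaving out Vehicle library 4 or library 5 of the combination ended the second (0.0547 and 0.0718).

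Pfkfb3, whose product drives glycolysis forward, fell with both LXR agonists and rose with the LXR antagonist. GW3965 gave 32.2, 30.3, 30.3, 34.9 and 32.4 CPM and GW3965 + second compound gave 37.7, 38.1, 35.8, 37.8 and 39.1 CPM, against a lowest of 53.9, a median of 57.8 and a highest of 59.3 CPM with Vehicle. These were log2 fold changes of -0.83 (SE 0.0382) and -0.60 (SE 0.0375), with no overlap with Vehicle. With 27HC the values were 42.7, 44.5, 44.8, 43.5 and 43.9 CPM (log2 fold change -0.38, SE 0.0373), below every Vehicle and every ICI library. ICI averaged 49.9 ± 1.498 CPM (SD), a log2 fold change of -0.20 (SE 0.0370). GSK2033 gave 76.2, 72.8, 69.7, 76.5 and 67.8 CPM (0.35, SE 0.0365) and GSK2033 + 27HC gave 68.0, 67.0, 68.0, 73.4 and 70.4 CPM (0.28, SE 0.0364), both above every Vehicle library. ICI + 27HC lay close together at 60.2 to 61.5 CPM, just above every Vehicle library, with a log2 fold change of 0.08 (SE 0.0367) that did not pass (adjusted p = 0.0534, edgeR). It passed without Vehicle library 4 (adjusted p = 0.0415, edgeR) or 5 (0.0456), in the fit of the compared groups alone (0.0499) and with scaling by library totals (0.0192). Pfkfb3 differed in 33 of the 36 pairs of groups, the most of the 8 genes. Per pair, 4.7% to 53% of all tested genes differed, and their counts of pairs were not computed.

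Hilpda, the lipid droplet protein, was highest where 27HC was combined with an antagonist. GSK2033 + 27HC gave 20.3, 21.1, 19.8, 18.7 and 17.6 CPM and ICI + 27HC gave 18.9, 18.6, 19.5, 17.95 and 19.2 CPM, against a lowest of 7.56, a median of 8.53 and a highest of 9.97 CPM with Vehicle. The log2 fold changes were 1.19 (SE 0.0672, adjusted p = 7.30e-20, edgeR) and 1.14 (SE 0.0675, adjusted p = 3.12e-19, edgeR), and both groups lay above every library of the other 7. GSK2033 alone gave 11.8, 15.0, 11.6, 13.6 and 11.9 CPM (log2 fold change 0.58, SE 0.0690) and 27HC alone 11.9, 13.7, 12.3, 12.2 and 10.4 CPM (0.50, SE 0.0693), above every Vehicle library and not told apart from each other. GW3965 + second compound gave 9.31 to 10.7 CPM, overlapping Vehicle (log2 fold change 0.26, SE 0.0697, adjusted p = 0.00153, edgeR). With GW3965, E2 and ICI the mean was 9.15, 8.51 and 9.35 CPM, against 8.59 CPM with Vehicle, and Hilpda did not pass.

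Ndrg1 was highest in the GW3965 groups. GW3965 + second compound gave 38.7, 40.1, 40.5, 39.96 and 38.4 CPM, against a lowest of 15.8, a median of 17.9 and a highest of 18.7 CPM with Vehicle, a log2 fold change of 1.18 (SE 0.0507, adjusted p = 2.15e-24, edgeR). GW3965 gave 34.1, 33.6, 33.8, 34.7 and 36.2 CPM (log2 fold change 0.98, SE 0.0512, adjusted p = 3.57e-21, edgeR). All libraries of both groups lay above every library of any other group. Even so, GSK2033 + 27HC was not told apart from GW3965 alone (log2 difference -0.12, SE 0.0516, adjusted p = 0.0577, edgeR). GSK2033 + 27HC gave 31.4, 32.5, 32.7, 30.7 and 31.6 CPM (log2 fold change 0.86, SE 0.0512) and ICI + 27HC gave 25.7, 31.2, 31.2, 30.2 and 27.4 CPM (0.74, SE 0.0516). The single compounds 27HC, GSK2033 and ICI gave smaller rises, with log2 fold changes of 0.35 (SE 0.0524), 0.23 (SE 0.0527) and 0.22 (SE 0.0526) and no overlap with Vehicle. With E2, Ndrg1 averaged 15.9 ± 0.765 CPM, against 17.4 ± 1.199 CPM with Vehicle (SD), and did not pass (log2 fold change -0.14, adjusted p = 0.164, edgeR).

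Bnip3, the mitophagy gene, was lowest in the ICI groups and highest with GSK2033 + 27HC. ICI gave 82.2, 84.6, 86.7, 86.1 and 86.4 CPM (log2 fold change -0.34, SE 0.0333) and ICI + 27HC gave 90.6, 94.4, 92.0, 88.7 and 93.1 CPM (-0.23, SE 0.0332), against a lowest of 104, a median of 107 and a highest of 113 CPM with Vehicle. Neither group overlapped Vehicle. GSK2033 + 27HC stood above every Vehicle library at 128, 139.6, 131, 128 and 127 CPM (log2 fold change 0.27, SE 0.0328, adjusted p = 1.26e-09, edgeR). In the other 5 treatments the log2 fold change was between -0.07 and 0.05 and did not pass.

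P4ha1, the collagen hydroxylase subunit, moved least. It was lowest with ICI + 27HC, at 176, 174, 178, 178 and 184 CPM (log2 fold change -0.39, SE 0.0230), and with GW3965 + second compound, at 175, 183, 178, 185 and 183 CPM (-0.36, SE 0.0230), against a lowest of 222, a median of 233 and a highest of 240.4 CPM with Vehicle. ICI (-0.23, SE 0.0229), GW3965 (-0.22, SE 0.0230) and 27HC (-0.14, SE 0.0229) also lay wholly below Vehicle on that scale. GSK2033 (0.07, SE 0.0228, adjusted p = 0.0106, edgeR) and GSK2033 + 27HC (0.08, SE 0.0228, adjusted p = 0.00476, edgeR) were slightly higher in log2 fold change and overlapped Vehicle. E2 averaged 234 ± 2.22 CPM, against 233 ± 6.89 CPM with Vehicle (SD), a difference of 0.01 on the log2 scale with a 95% interval from -0.04 to 0.06.

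**Figure D2:**
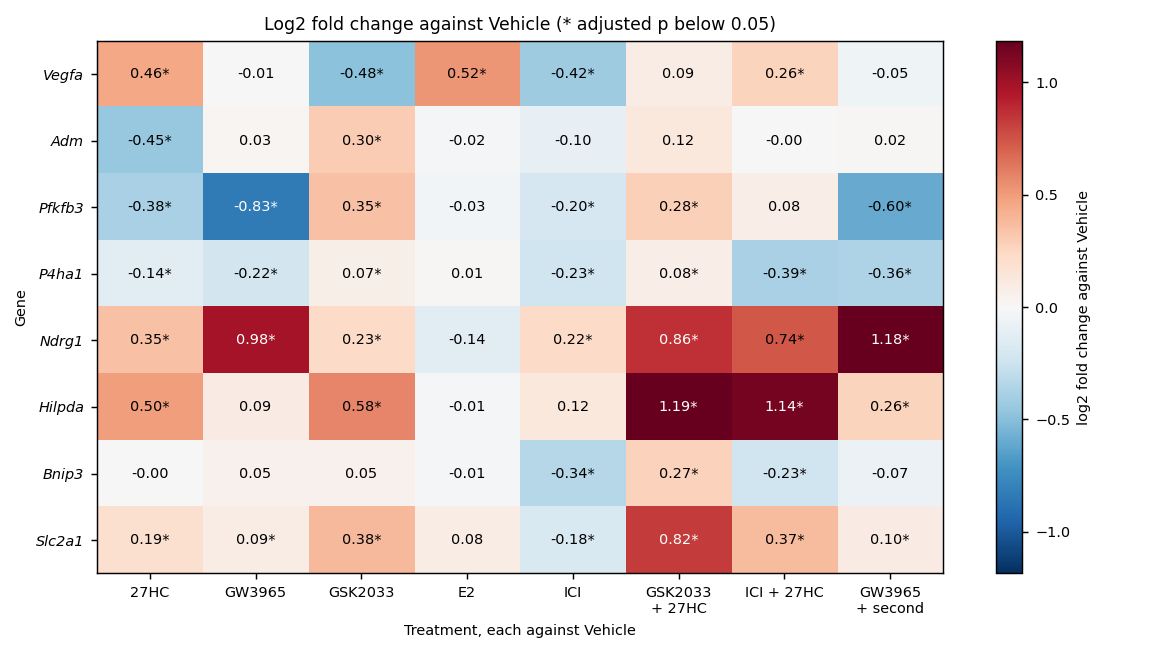
Log2 fold change against Vehicle of each gene (rows) with each treatment (columns), in colour and number, with an asterisk where the adjusted p was below 0.05. The E2 column holds a single asterisk, for Vegfa at 0.52, and the largest values are 1.19 (Hilpda, GSK2033 + 27HC) and 1.18 (Ndrg1, GW3965 + second compound).

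Counted by treatment against Vehicle, the members have to be read beside the share of all tested genes that passed, which was high for most ligands. With 27HC, 4 of the 8 rose (Vegfa, Ndrg1, Hilpda and Slc2a1) and 3 fell (Adm, Pfkfb3 and P4ha1), where 20.3% of all genes rose and 20% fell (40.3% together). With GW3965, 2 rose (Ndrg1 and Slc2a1) and 2 fell (Pfkfb3 and P4ha1), where 23.1% of all genes rose and 21.1% fell (44.2% together). The count for GW3965 is thus close to the background. The size of the Pfkfb3 change was reached or passed by 8.69% of tested genes, and that of Ndrg1 by 6.69%. With GSK2033, 6 rose and Vegfa fell, where 18.4% of all genes rose and 17.9% fell (36.3% together). E2 moved few genes, 2.2% higher and 2.49% lower (4.7% together), and of the members Vegfa alone rose and 0 fell, a size that 4.24% of tested genes reached or passed. With ICI, Ndrg1 rose and 5 fell (Vegfa, Pfkfb3, P4ha1, Bnip3 and Slc2a1), where 13.9% of all genes rose and 12.5% fell (26.4% together). The median log2 fold change of the members was 0.09 with 27HC, 0.04 with GW3965, 0.27 with GSK2033, -0.01 with E2 and -0.19 with ICI, and that of all tested genes lay between -0.01 and 0.01 in each of these. Of the combinations, GSK2033 + 27HC raised 6 and lowered 0 of the members, where 24.1% of all genes rose and 26.4% fell (50.4% together). Scaled by library totals, 58.3% of all calls of that comparison were rises, where TMM gave 47.7%. ICI + 27HC raised 4 (Vegfa, Ndrg1, Hilpda and Slc2a1) and lowered P4ha1 and Bnip3, where 26.6% rose and 26.4% fell (53% together). GW3965 + second compound raised 3 (Ndrg1, Hilpda and Slc2a1) and lowered 2 (Pfkfb3 and P4ha1), where 25.2% rose and 24.4% fell (49.5% together), near the background. The treatments share the Vehicle libraries, so their columns are not independent.

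Between the LXR ligands 27HC and GW3965 the members differed directly, in 7 of 8 genes. With 27HC, 5 were higher than with GW3965 (Vegfa, Pfkfb3, P4ha1, Hilpda and Slc2a1) and 2 were lower (Adm and Ndrg1), where 12.8% of all genes were higher and 12.5% lower (25.3% together; by library totals 60.9% of calls were higher, where TMM gave 50.4%). Vegfa averaged 80.5 ± 4.36 CPM with 27HC and 58.3 ± 2.49 CPM with GW3965 (SD), a log2 difference of 0.47 (SE 0.0542, adjusted p = 1.81e-09, edgeR). Ndrg1 had the largest difference, at 22.2 ± 1.97 CPM with 27HC and 34.5 ± 1.06 CPM with GW3965 (SD; log2 -0.63, SE 0.0528, adjusted p = 1.24e-13, edgeR). Adm differed by -0.48 (SE 0.0786), Pfkfb3 by 0.45 (SE 0.0403) and Hilpda by 0.40 (SE 0.0724) on the log2 scale, each without overlap. The difference of 0.10 for Slc2a1 (adjusted p = 0.0296, edgeR) did not pass without 27HC library 2 (0.0607) or 3 (0.0570).

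GSK2033 added to 27HC changed all 8 genes relative to 27HC alone. Of these, 7 rose and Vegfa fell, where 21.1% of all genes rose and 21.7% fell (42.8% together; by library totals 61.1% of calls were rises, where TMM gave 49.4%). Vegfa had 62.3 ± 2.70 CPM with GSK2033 + 27HC and 80.5 ± 4.36 CPM with 27HC (SD; log2 -0.37, SE 0.0538, adjusted p = 1.55e-07, edgeR). The rises ran from 0.21 (P4ha1, SE 0.0239) to 0.69 (Hilpda, SE 0.0686) on the log2 scale, with 0.66 for Pfkfb3 (SE 0.0386), 0.64 for Slc2a1 (SE 0.0349), 0.57 for Adm (SE 0.0778), 0.51 for Ndrg1 (SE 0.0527) and 0.28 for Bnip3 (SE 0.0342). No group of libraries overlapped in these 8 comparisons, and the share of all tested genes without overlap was not computed. The median log2 difference of the members was 0.54, against 0.00 for all tested genes.

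ICI added to 27HC also changed all 8 relative to 27HC alone, with 5 rises (Adm, Pfkfb3, Ndrg1, Hilpda and Slc2a1) and 3 falls (Vegfa, P4ha1 and Bnip3), where 16.8% of all genes rose and 17.4% fell (34.1% together). Hilpda had 18.8 ± 0.605 CPM with ICI + 27HC and 12.1 ± 1.17 CPM with 27HC (SD; log2 0.64, SE 0.0689). Pfkfb3 differed by 0.46 (SE 0.0389), Adm by 0.45 (SE 0.0785) and Ndrg1 by 0.39 (SE 0.0531) on the log2 scale. Vegfa was lower, at 70.2 ± 5.43 CPM with ICI + 27HC and 80.5 ± 4.36 CPM with 27HC (SD), and the highest library of the combination reached the lowest 27HC libraries (log2 -0.20, SE 0.0537, adjusted p = 0.00319, edgeR). The second compound added to GW3965 moved 4 members, with rises of Pfkfb3 (0.23, SE 0.0405) and Ndrg1 (0.20, SE 0.0511) and falls of P4ha1 (-0.14, SE 0.0241) and Bnip3 (-0.12, SE 0.0345) on the log2 scale, where 7.93% of all genes rose and 9.56% fell (17.5% together; by library totals 58.7% of calls were rises, where TMM gave 45.3%). For Vegfa that difference was -0.05, with a 95% interval from -0.16 to 0.06.

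What 27HC did in the presence of each antagonist is the reverse way to read the same groups. On top of GSK2033, 27HC raised 5 members (Vegfa, Ndrg1, Hilpda, Bnip3 and Slc2a1) and lowered 0, where 17.1% of all genes rose and 18.8% fell (35.8% together; by library totals 62.7% of calls were rises, where TMM gave 47.6%). Vegfa had 62.3 ± 2.70 CPM with GSK2033 + 27HC and 41.9 ± 3.66 CPM with GSK2033 (SD; log2 0.57, SE 0.0555, adjusted p = 9.24e-12, edgeR), so the rise of Vegfa on adding 27HC was also measured with the LXR antagonist present. Ndrg1 differed by 0.63 (SE 0.0530), Hilpda by 0.61 (SE 0.0683), Slc2a1 by 0.44 (SE 0.0348) and Bnip3 by 0.22 (SE 0.0342) on the log2 scale. Adm had 15.0 to 16.6 CPM with GSK2033 + 27HC and 16.9 to 18.7 CPM with GSK2033, without overlap, but its log2 difference of -0.18 did not pass (SE 0.0750, adjusted p = 0.0534, edgeR). It passed with DESeq2 (adjusted p = 0.0446) and in the fit of these groups alone (0.0180). On top of ICI, 27HC raised 6 members and lowered P4ha1, where 19.7% of all genes rose and 20.7% fell (40.4% together). Hilpda differed by 1.01 (SE 0.0701), Vegfa by 0.68 (SE 0.0551), Slc2a1 by 0.55 (SE 0.0355) and Pfkfb3 by 0.28 (SE 0.0386) on the log2 scale.

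**Figure D3:**
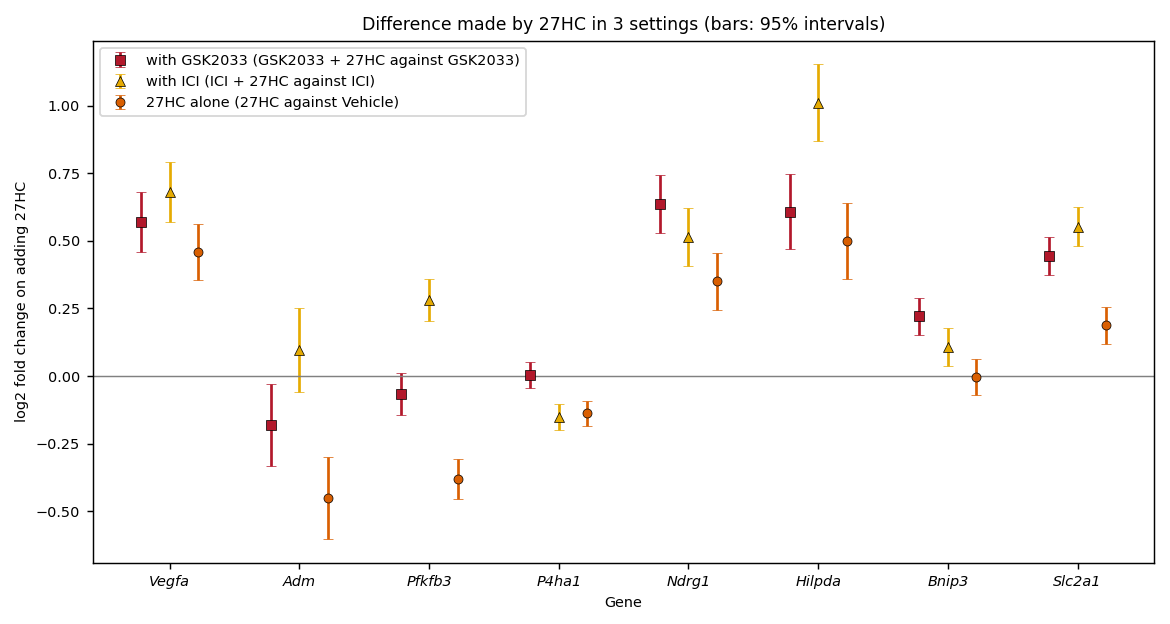
Log2 fold change on adding 27HC (vertical axis, with 95% intervals) for each gene (horizontal axis) in the presence of GSK2033 (squares), of ICI (triangles) and alone (circles). Vegfa, Ndrg1, Hilpda and Slc2a1 lie above 0 in all 3 settings, and Pfkfb3 lies at -0.38 with 27HC alone and 0.28 with ICI.

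Whether 27HC acted differently with an antagonist was tested by the interaction, the log2 change on adding 27HC with the antagonist minus that without. With GSK2033, 5 members had a positive interaction (Pfkfb3, P4ha1, Ndrg1, Bnip3 and Slc2a1) and 0 a negative one, where 9.34% of all genes were higher and 10.3% lower (19.6% together; by library totals 63.2% of calls were positive, where TMM gave 47.6%). Pfkfb3 changed by -0.07 on adding 27HC to GSK2033 and by -0.38 with 27HC alone, an interaction of 0.31 (SE 0.0531, adjusted p = 1.16e-05, edgeR). Slc2a1 had an interaction of 0.26 (SE 0.0487, adjusted p = 7.23e-05, edgeR). For Vegfa it was 0.11 with a 95% interval from -0.04 to 0.26 (adjusted p = 0.342, edgeR), so no difference in the Vegfa response was detectable. With ICI, 5 members had a positive interaction (Vegfa, Adm, Pfkfb3, Hilpda and Slc2a1) and 0 a negative one, where 7.39% of all genes were higher and 9.97% lower (17.4% together; by library totals 54.2% of calls were positive, where TMM gave 42.6%). Pfkfb3 rose by 0.28 on adding 27HC to ICI, against -0.38 with 27HC alone, an interaction of 0.66 (SE 0.0537, adjusted p = 2.46e-13, edgeR). Adm had an interaction of 0.55 (SE 0.108), Hilpda of 0.51 (SE 0.0986) and Slc2a1 of 0.37 (SE 0.0492). The interaction of 0.22 for Vegfa (SE 0.0756, adjusted p = 0.0333, edgeR) did not pass when any of Vehicle libraries 1 and 2, 27HC libraries 3 and 5, ICI libraries 3 and 4 or ICI + 27HC libraries 1 and 2 was left out (adjusted p from 0.0537 to 0.0750), nor without the filter on low counts (0.0524).

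Among the regulators of the pathway, of which 16 of 17 listed genes were tested, Hif1a, the alpha subunit of HIF-1, fell with 6 of the 8 treatments. Its transcript averaged 207 ± 10.2 CPM with 27HC, 145 ± 6.30 CPM with GW3965 and 192 ± 1.82 CPM with ICI, against 332 ± 21.4 CPM with Vehicle (SD), with log2 fold changes of -0.68, -1.20 and -0.79. With GSK2033 + 27HC it averaged 285 ± 9.33 CPM, against 207 ± 10.2 CPM with 27HC (SD; log2 0.47, adjusted p = 1.1e-12, edgeR). Egln3, a HIF prolyl hydroxylase and itself a HIF target, rose with 27HC (log2 fold change 0.50), GW3965 (0.41), GSK2033 (0.28) and GSK2033 + 27HC (0.83) and fell with ICI (-0.37). With 27HC, 3 of the 16 rose and 6 fell, 56.2% of the list against 40.3% of all tested genes called either way. The counts were 3 and 3 with GW3965 (37.5% against 44.2%), 3 and 1 with GSK2033 (25% against 36.3%), 0 and 0 with E2 (against 4.7%) and 1 and 4 with ICI (31.2% against 26.4%). They were 4 and 5 with GSK2033 + 27HC (56.2% against 50.4%), 0 and 6 with ICI + 27HC (37.5% against 53%) and 1 and 5 with GW3965 + second compound (37.5% against 49.5%). The called share was below the background with GW3965, GSK2033, E2 and 2 of the combinations. In a list of 16 genes each of these gaps amounts to few genes and is not read as a result. Transcript levels say nothing of HIF protein, which is controlled by its stability.

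A wider list of 43 hypoxia-responsive genes outside the 8, of which 42 were tested, shares 2 genes with the regulators (Egln1 and Egln3) and 4 with the list of relatives below (Bnip3l, P4ha2, Pfkfb4 and Slc2a3). With GSK2033 + 27HC against Vehicle, 27 of the 42 rose and 8 fell (64.3% and 19% of the list), where 24.1% of all tested genes rose and 26.4% fell. By library totals, 58.3% of all calls there were rises, where TMM gave 47.7%. The median log2 fold change was 0.26 for the list and -0.01 for all tested genes. Those with the smallest p were Hmox1 (0.81), Bhlhe40 (1.17), Cxcr4 (-1.03) and Slc16a3 (0.79), which encode heme oxygenase-1, a transcriptional repressor, a chemokine receptor and a lactate transporter. With ICI, 5 of the 42 rose and 22 fell (11.9% and 52.4% of the list), where 13.9% of all genes rose and 12.5% fell, and the median was -0.17 for the list and 0.01 for all genes. The genes with the smallest p there went both ways: Hmox1 (0.48) and Bhlhe40 (0.40) rose, as they did with GSK2033 + 27HC, and Pfkl (-0.37), a subunit of phosphofructokinase, and Cxcr4 (-0.42) fell. With 27HC, 15 rose and 10 fell (median 0.06), 59.5% of the list against 40.3% of all genes called either way. The counts were 18 and 10 with GW3965 (median 0.07, 66.7% against 44.2%), 15 and 8 with GSK2033 (0.03, 54.8% against 36.3%) and 6 and 0 with E2 (0.06, 14.3% against 4.7%). They were 8 and 18 with ICI + 27HC (-0.09, 61.9% against 53%) and 14 and 16 with GW3965 + second compound (-0.04, 71.4% against 49.5%). Adding GSK2033 to 27HC raised 27 and lowered 9 (median 0.20), where 21.1% of all genes rose and 21.7% fell. The interaction of GSK2033 with 27HC was positive in 18 and negative in 4 (median 0.15), where 9.34% of all genes were positive and 10.3% negative, with Slc16a3 at 0.63, Pfkl at 0.39, Eno1 at 0.24 and Plod1 at -0.28.

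**Figure D4:**
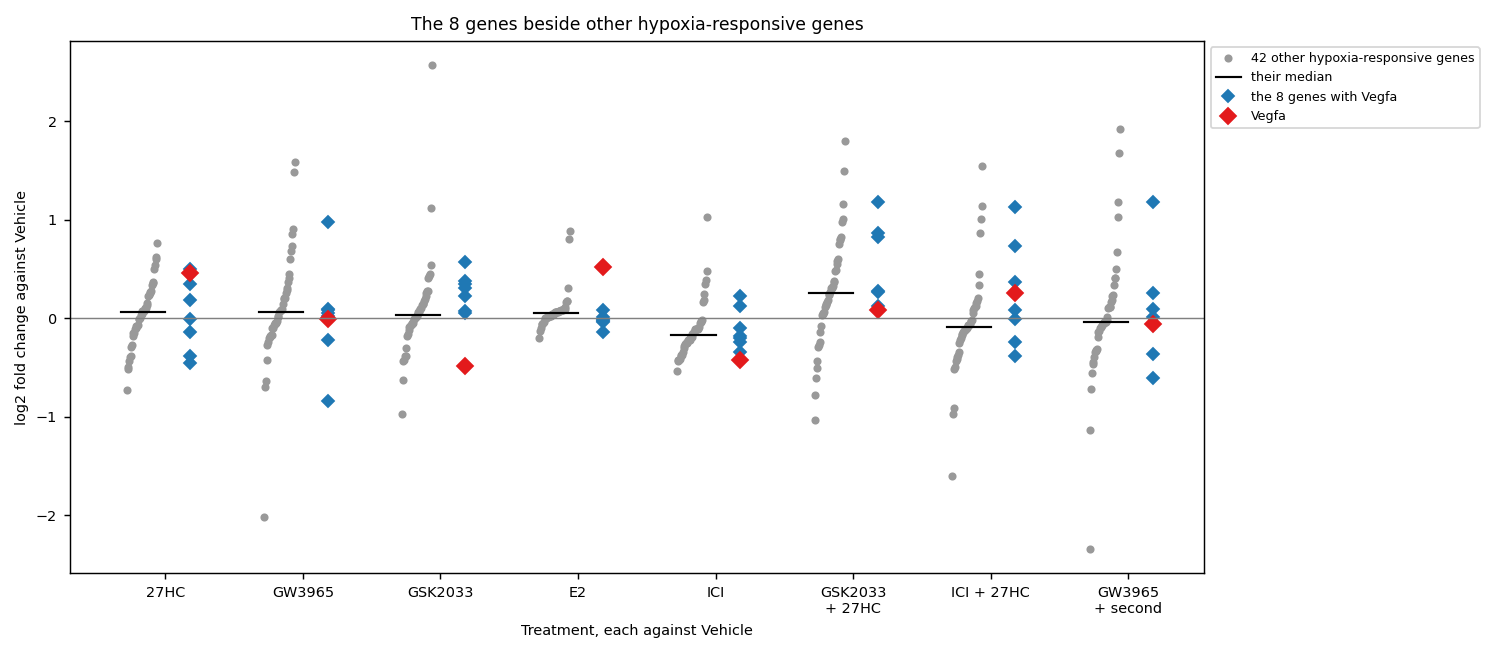
Log2 fold change against Vehicle (vertical axis) with each treatment (horizontal axis) for 42 other hypoxia-responsive genes (grey points in order of size, with a bar at their median) and the 8 members (diamonds, Vegfa in red). The median of the 42 is highest with GSK2033 + 27HC, at 0.26, and lowest with ICI, at -0.17, and Vegfa lies above 0 with E2 and below 0 with GSK2033 and ICI.

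The partners of the secreted ligands were followed in a list of 15 genes, of which 13 were tested. Nrp1, a co-receptor for VEGF-A, averaged 195 ± 11.7 CPM with 27HC, 313 ± 15.4 CPM with GW3965 and 75.1 ± 3.43 CPM with GSK2033, against 101 ± 6.38 CPM with Vehicle (SD). Its log2 fold changes were 0.94, 1.63 and -0.43, and it was 0.73 with ICI and 2.07 with GW3965 + second compound. Calcrl, the receptor for adrenomedullin together with RAMP proteins, rose with 27HC (0.64) and GW3965 (0.61) and fell with GSK2033 (-0.32). The RAMP genes were low, with means of 1.87 CPM for Ramp1, 0.403 for Ramp2 and 0.151 for Ramp3 (not tested) with Vehicle. Vegfb rose with 27HC (0.45), GW3965 (0.59) and ICI (0.33). Kdr, the main signalling receptor for VEGF-A, was low at 8.94 ± 0.538 CPM with GSK2033 and 2.41 ± 0.153 CPM with GW3965, against 4.84 ± 0.4933 CPM with Vehicle (SD), with log2 fold changes of 0.89 and -1.01. Of the 13, 5 rose and 1 fell with 27HC, 46.2% of the list against 40.3% of all tested genes. The counts were 5 and 2 with GW3965 (53.8% against 44.2%), 2 and 2 with GSK2033 (30.8% against 36.3%), 2 and 0 with E2 (15.4% against 4.7%) and 5 and 0 with ICI (38.5% against 26.4%). They were 6 and 0 with GSK2033 + 27HC (46.2% against 50.4%), 6 and 2 with ICI + 27HC (61.5% against 53%) and 5 and 4 with GW3965 + second compound (69.2% against 49.5%).

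Relatives and partners of the other members made up a list of 18 genes, of which 17 were tested. Pfkfb4, a relative of Pfkfb3, fell with 27HC (log2 fold change -0.51) and GW3965 (-0.70), and also with GSK2033 + 27HC (-0.78), where Pfkfb3 rose by 0.28. Slc2a6, a relative of Slc2a1, fell with 27HC (-0.62) and GW3965 (-0.60) and rose with GSK2033 (0.70). Plin2, the lipid droplet coat protein, rose with 27HC (0.18), GW3965 (0.51) and ICI + 27HC (0.56), and Pnpla2, which encodes the lipase that Hilpda's product inhibits, fell with GSK2033 (-0.47) and GSK2033 + 27HC (-0.44). P4hb, the partner subunit of P4ha1, rose with GSK2033 (0.27) and GSK2033 + 27HC (0.61). Of the 17, 5 rose and 6 fell with 27HC, 64.7% of the list against 40.3% of all tested genes. The counts were 6 and 2 with GW3965 (47.1% against 44.2%) and 4 and 3 with GSK2033 (41.2% against 36.3%), both near the background, 0 and 0 with E2 (against 4.7%) and 3 and 4 with ICI (41.2% against 26.4%). They were 6 and 6 with GSK2033 + 27HC (70.6% against 50.4%), 5 and 6 with ICI + 27HC (64.7% against 53%) and 6 and 4 with GW3965 + second compound (58.8% against 49.5%).

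The genes most like each member were sought among 8549 tested genes with a mean of at least 10 CPM, by Pearson's r of the 9 group means of log2 CPM, which come from the same 46 libraries. For Vegfa they were Cmtm4 (0.935), Uevld (0.904), Usp28 (0.892), Sh3pxd2a (0.879) and Nckap5l (0.874), none of which is on the lists above. The range of group means was 0.32 for Cmtm4 and 0.65 for Usp28 on the log2 scale, against 1.00 for Vegfa. The closest genes of the other members were Ndrg4 for Adm (0.919), Slamf8 for Pfkfb3 (0.972), Dram1 for P4ha1 (0.968), Pole4 for Ndrg1 (0.984), Osgin2 for Hilpda (0.998), Eny2 for Bnip3 (0.952) and Tbc1d10a for Slc2a1 (0.975). With only 9 means per gene, the best of 8549 candidates can reach a high r through selection alone. Shared regulation was not tested.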

How the data were processed

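The deposited values are estimated counts per gene, which the authors made with kallisto 0.44.0 on GRCm38 per the submitters' processing notes, from 46 stranded libraries sequenced as single reads, demultiplexed with bcl2fastq 2.20 per the labels' protocols. Whether a transcript length correction or a strand setting was used is not given in the sources used here. Symbols and positions came from GENCODE M21 (24279 of 24671 genes, the rest holding 0.455% of counts). Estimated counts were rounded, which changed no library total by more than 133. Replicate libraries differed by more than counting error (chi-square per degree of freedom 3.91 to 12.3), and 0 pairs were identical.

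Genes were kept with filterByExpr (13838), scaled by TMM and fitted in edgeR 4.0.16 (quasi-likelihood, robust) over all 46 libraries with 1 mean per group, with Benjamini-Hochberg adjustment and calls at 0.05. Log2 CPM used a prior count of 2. The scripts were tested on simulated data. Alternatives were RLE or library-total scaling, no filter, no rounding, a replicate block, DESeq2 1.42.0, no mitochondrially encoded genes, the compared groups alone, and leaving out each library. The members, gene lists and comparisons were chosen with earlier results of these data known, so counts over them are descriptions. Named genes are the 8 members, up to 4 genes per list and comparison with the smallest p, the closest genes by correlation, and Abca1, Abcg1 and Esr1 as ligand checks. The RAMP genes are named for their levels beside Calcrl. The comparison of ICI + 27HC with ICI was taken from the 36 pairs of groups. Sequences are from RefSeq on GRCm38.p6.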

Additional observations from a re-analysis of the deposited data

Results flagged for a closer look

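For 10 results the change on adding 27HC differed with and without an antagonist, by the interaction term of edgeR's quasi-likelihood fit over all genes. With GSK2033 the interaction on the log2 scale was 0.31 for Pfkfb3, 0.14 for P4ha1, 0.29 for Ndrg1, 0.22 for Bnip3 and 0.26 for Slc2a1. With ICI it was 0.22 for Vegfa, 0.55 for Adm, 0.66 for Pfkfb3, 0.51 for Hilpda and 0.37 for Slc2a1. The interaction for Vegfa with ICI did not pass when any of 8 single libraries was left out. In 72 sets of values, 1 gene in 1 group each, 0 libraries stood apart from the rest of their group by Dixon's criterion at the 95% level, which chance passes in about 1 in 20 sets.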

How the results depend on the processing

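Of 120 single-gene results (8 genes in 15 comparisons and interactions), none reversed direction under the alternatives run. All 120 stayed on the same side of the threshold with RLE scaling and without rounding, 119 without mitochondrially encoded genes and with DESeq2, 118 without the filter, 117 with the compared groups alone and 113 with library totals, and 1413 of 1440 when 1 library was left out. The call for Slc2a1 with GW3965 against Vehicle (0.09) was lost most often: its log2 fold change was 0.06 (adjusted p = 0.126, edgeR) with library totals, 0.07 (0.12) without the filter, 0.08 (0.063) without mitochondrially encoded genes and 0.07 (0.0926) with those groups alone. Same-numbered libraries were at most weakly alike: the correlation of their deviations was -0.04 to 0.0819 over 65 pairs, and 20 of 65 were best with their own number. How many would be so without pairing was not computed, so weak pairing by number was not tested. With replicate number as a block, that Slc2a1 value was 0.08 (adjusted p = 0.062, edgeR), and Bnip3 passed with GW3965 + second compound against Vehicle (-0.08, 0.0404) and in the interaction of ICI with 27HC (0.12, 0.0469). No count of members or of all genes moved by more than 1.5 times. Adm (0.18) passed in GSK2033 + 27HC against Vehicle with library totals only (adjusted p = 0.0417, edgeR). With 1 library left out, members called ranged from 3 to 4 for GW3965, 4 to 6 for GW3965 + second compound and 4 to 6 for the interaction with ICI.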
